A study of Mus musculus with 6 samples.

Results

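The PARP family was followed here through 10 genes, the ADP-ribosyltransferase genes Parp1, Parp2, Parp3, Parp8, Parp9, Parp10, Parp11, Parp12 and Parp14 and the ubiquitin ligase gene Dtx3l, whose product binds PARP9. They were chosen by name, with earlier results of these data known. They make up 10 of the 19938 genes measured by a probe set annotated to a single gene. Each had 1 such probe set. Parp14, Dtx3l and Parp9 lie on chromosome 16, Parp11 and Parp12 on 6, Parp10 on 15, Parp1 on 1, Parp2 on 14, Parp3 on 9 and Parp8 on 13. The samples were total RNA of 3 established mouse cell lines, each with 1 array after 4 h of interferon-beta (IFN-β) and 1 array left unstimulated. The groups were NIH3T3 with IFN-β and unstimulated NIH3T3 (embryonic fibroblasts), L929 with IFN-β and unstimulated L929 (connective tissue fibroblasts), and RAW264.7 with IFN-β and unstimulated RAW264.7 (a macrophage line). The labels name no genetic change in any line. IFN-β was added at a dose not given in the sources used here. Its authors set out to find genes whose transcripts respond to IFN-β.

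PARP enzymes take ADP-ribose from NAD+ and attach it to proteins or nucleic acids. PARP1 and PARP2 build chains of it at DNA breaks, while most other members attach single units, and several of these are known as interferon-induced genes with roles in antiviral defence. IFN-β acts through a receptor on the cell surface whose kinases activate transcription factors, among them STAT2, which joins IRF9 to bind the interferon-stimulated response element in the promoters of induced genes. In human cells the genes for PARP9 and DTX3L lie head to head and share an interferon-responsive promoter.

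RefSeq promoter windows (build GRCm38.p6, 250 bases before to 50 after a gene's start) were matched for 7 of the 10 genes, with 8 windows in all, and searched on both strands for the core of that element, GAAA followed after any 2 bases by GAAA again. The 3 windows below belong to genes that rose with IFN-β. They are shown because the element occurs in the Parp11 window and not in the others, and capitals mark the match. They lie at chr6:127446590-127446889 on the plus strand for Parp11, chr16:35938978-35939277 on the minus strand for Dtx3l and chr6:39118300-39118599 on the minus strand for Parp12.
Parp11: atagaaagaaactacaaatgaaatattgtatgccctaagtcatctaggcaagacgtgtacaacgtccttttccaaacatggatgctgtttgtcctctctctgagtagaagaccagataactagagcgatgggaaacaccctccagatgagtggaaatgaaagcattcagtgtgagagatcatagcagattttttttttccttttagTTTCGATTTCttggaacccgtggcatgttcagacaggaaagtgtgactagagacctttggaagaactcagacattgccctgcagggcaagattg
Dtx3l: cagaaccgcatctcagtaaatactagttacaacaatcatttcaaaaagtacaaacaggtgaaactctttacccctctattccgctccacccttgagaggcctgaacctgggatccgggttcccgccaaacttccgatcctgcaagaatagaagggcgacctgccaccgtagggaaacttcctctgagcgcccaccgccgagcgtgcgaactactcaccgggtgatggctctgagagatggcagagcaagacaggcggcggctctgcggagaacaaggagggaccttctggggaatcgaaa
Parp12: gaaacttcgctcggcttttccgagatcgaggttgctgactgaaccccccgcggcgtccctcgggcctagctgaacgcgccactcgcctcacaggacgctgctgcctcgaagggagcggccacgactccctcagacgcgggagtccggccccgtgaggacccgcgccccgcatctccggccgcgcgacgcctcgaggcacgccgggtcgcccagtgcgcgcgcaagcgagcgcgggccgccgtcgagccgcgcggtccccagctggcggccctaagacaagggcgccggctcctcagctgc
The match in Parp11 reads TTTCGATTTC on the strand shown and GAAATCGAAA on the other, and it ends 34 bases before the start that this window belongs to. The same core with a C after it, which contains the shorter motif, and TTCNNNGAA, the form bound by STAT dimers, each occurred in 1 of the 8 windows, again that of Parp11. Over all 32851 windows of the table the core was present in 3.44%, the core with C in 0.819% and TTCNNNGAA in 8.3%. A further window of Parp11 and those of Parp1, Parp2, Parp3 and Parp8 held none of the 3 motifs. A match describes the letters in the window and no binding was measured.

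The lines carried the markers of their labels. The 8 macrophage markers had a median log2 level of 10.93 on both RAW264.7 arrays, against 4.13 to 4.36 on the 4 fibroblast arrays, with Lyz2, Tyrobp, Fcer1g and Cd68 among the 8. The 8 fibroblast markers, Fn1, Col1a1, Col1a2 and Sparc among them, had medians of 4.66 with IFN-β and 4.64 unstimulated in RAW264.7 and between 8.96 and 10.83 in the fibroblast lines. In L929 the matrix gene Dcn was low, at 3.74 with IFN-β and 3.41 unstimulated. Epithelial and lymphocyte markers had medians between 4.25 and 5.43 on every array, and 0 of the 27 marker genes measured passed the limma test for IFN-β, with 0 in either direction at an unadjusted p under 0.05. The array of stimulated NIH3T3 stood slightly apart, with a median of 5.05 over all probe sets against 4.72 to 4.82 on the other arrays, and the median log2 change over all genes was 0.17 for NIH3T3, -0.05 for L929 and -0.03 for RAW264.7.

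IFN-β raised 6 of the 10 genes across the lines: Parp9, Dtx3l, Parp14, Parp10, Parp11 and Parp12. The other 4, Parp1, Parp2, Parp3 and Parp8, did not pass, and 0 of the 10 fell, with 0 lower at an unadjusted p under 0.05. In RNA of whole cultures a change in the RNA per cell and one in the share of responding cells cannot be told apart. The test was limma's fit of IFN-β with cell line as a block, with p-values adjusted over all 19938 genes. In that fit 0.732% of all genes were called higher and 0.0% lower. All 6 were also at least 3-fold higher within each line, where the share of all genes was 0.476% for NIH3T3, 0.893% for L929 and 0.617% for RAW264.7. In RAW264.7 Parp14 and Parp11 were also past 5-fold, as were 0.336% of all genes. The median of the mean log2 changes was 2.48 over the 10 genes and 0.03 over all genes. Since the 10 were chosen with earlier results of these data known, these comparisons are no test of the family. Of 6 other measured PARP genes 0 passed. The 3 lines serve as replicates, and limma draws each gene's spread toward that of all genes, so the SD between lines stands beside its SE where the lines differed most.

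**Figure D1:**
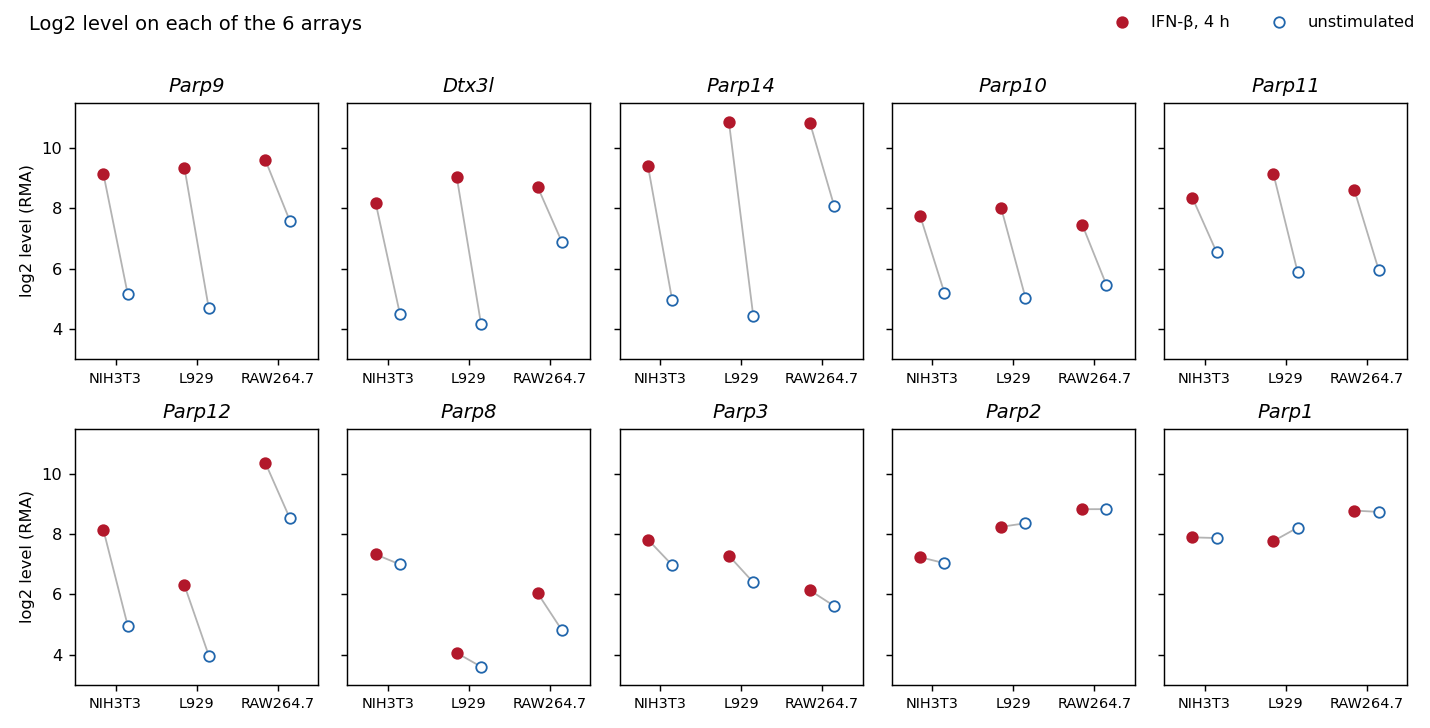
Log2 level (RMA) of each gene on each of the 6 arrays, 1 panel per gene. Filled points are arrays with IFN-β and open points unstimulated arrays, joined within a cell line. For Parp9, Dtx3l, Parp14, Parp10 and Parp11 every filled point lies above every open one.

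The partners Parp9 and Dtx3l were first compared. PARP9 binds ADP-ribose through its macrodomains, and DTX3L is an E3 ubiquitin ligase that works with it in a heterodimer. Parp9 (probe set 10435457) had log2 levels of 9.14 for NIH3T3, 9.34 for L929 and 9.59 for RAW264.7 with IFN-β, against 5.15, 4.69 and 7.59 in the same unstimulated lines. All stimulated arrays lay above all unstimulated ones, and unstimulated RAW264.7 was well above the unstimulated fibroblasts. Its change was 3.99 for NIH3T3, 4.65 for L929 and 2.0 for RAW264.7, or 15.9-fold, 25.1-fold and 4.01-fold. The mean log2 change was 3.55 ± 0.39 (SE, n = 3 lines, SD between lines 1.38, limma adjusted p = 0.00162).

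Dtx3l (10439268) was at 8.17 for NIH3T3, 9.05 for L929 and 8.71 for RAW264.7 with IFN-β, and at 4.48, 4.17 and 6.88 unstimulated. As for Parp9, the stimulated and unstimulated arrays did not overlap and RAW264.7 had the highest unstimulated level. Its log2 changes of 3.69 for NIH3T3, 4.88 for L929 and 1.83 for RAW264.7 correspond to 12.9-fold, 29.4-fold and 3.55-fold. Across lines the change was 3.47 ± 0.43 (SE, SD 1.54, limma adjusted p = 0.00327). Unstimulated fibroblast levels of both genes lay near or below the median of their arrays (4.77 in either line), were not shown to be above background, and give approximate folds.

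Parp14 encodes a large macrodomain protein known as a coactivator of STAT6, and it had the largest change of the 10 genes in each line. With IFN-β its log2 level (10439249) was 9.41 for NIH3T3, 10.86 for L929 and 10.84 for RAW264.7, against 4.94, 4.43 and 8.07 unstimulated. Again no stimulated array fell as low as an unstimulated one, and unstimulated RAW264.7 was the highest of its kind. The log2 change was 4.47 for NIH3T3, 6.43 for L929 and 2.77 for RAW264.7, or about 22.1-fold, 86.3-fold and 6.81-fold. As for Parp9 and Dtx3l, the fibroblast folds start from levels near or below the array median that were not shown to be above background. Ordered by change among all 19938 genes, Parp14 took place 15 for NIH3T3, 12 for L929 and 46 for RAW264.7. Its mean change was 4.56 ± 0.50 (SE, SD 1.83, limma adjusted p = 0.00162).

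Parp10 and Parp11 started from similar levels in the 3 lines. PARP10 attaches single ADP-ribose units and was first described in human cells as a MYC partner. Parp10 (10429843) was at 7.75 for NIH3T3, 8.01 for L929 and 7.46 for RAW264.7 with IFN-β, and at 5.19, 5.03 and 5.45 unstimulated. The unstimulated levels spanned 0.42 on the log2 scale and the stimulated ones 0.55, with no overlap between the conditions. Unstimulated fibroblast levels of Parp10 lay near the median of their arrays and were not shown to be above background. The log2 change was 2.56 for NIH3T3, 2.98 for L929 and 2.01 for RAW264.7, with a mean of 2.52 ± 0.20 (SE, SD 0.49, limma adjusted p = 0.000245).

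The product of Parp11 sits at the nuclear envelope and attaches single ADP-ribose units. A promoter window of this gene held the response element core, while its further window did not. Which start these lines use was not measured. Parp11 (10542040) was at 8.35 for NIH3T3, 9.14 for L929 and 8.60 for RAW264.7 with IFN-β, and at 6.54, 5.87 and 5.96 unstimulated. Here NIH3T3 had the highest unstimulated and the lowest stimulated level, and the conditions did not overlap. Its log2 changes were 1.81 for NIH3T3, 3.27 for L929 and 2.64 for RAW264.7, with a mean of 2.57 ± 0.25 (SE, SD 0.73, limma adjusted p = 0.000801). The change in NIH3T3, 3.51-fold, falls below 3-fold when each array is centred on its median.

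Parp12, a zinc finger member that restricts RNA viruses in human cells, differed between the lines mainly in level. With IFN-β it (10544133) stood at 8.13 for NIH3T3, 6.30 for L929 and 10.36 for RAW264.7, against 4.96, 3.97 and 8.53 unstimulated. Of the 6 genes that rose it is the one whose conditions overlapped across lines: unstimulated RAW264.7 lay above both stimulated fibroblast arrays. Within each line the stimulated array was higher, by 3.17 for NIH3T3, 2.33 for L929 and 1.83 for RAW264.7. Unstimulated fibroblast levels of Parp12 lay near or below the median of their arrays and were not shown to be above background. The mean log2 change was 2.44 ± 0.24 (SE, SD 0.68, limma adjusted p = 0.00083). Levels spanned 4.06 across the lines with IFN-β and 4.56 without. For 5 of the 10 genes each stimulated array was above each unstimulated one, as for 4.85% of all genes.

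**Figure D2:**
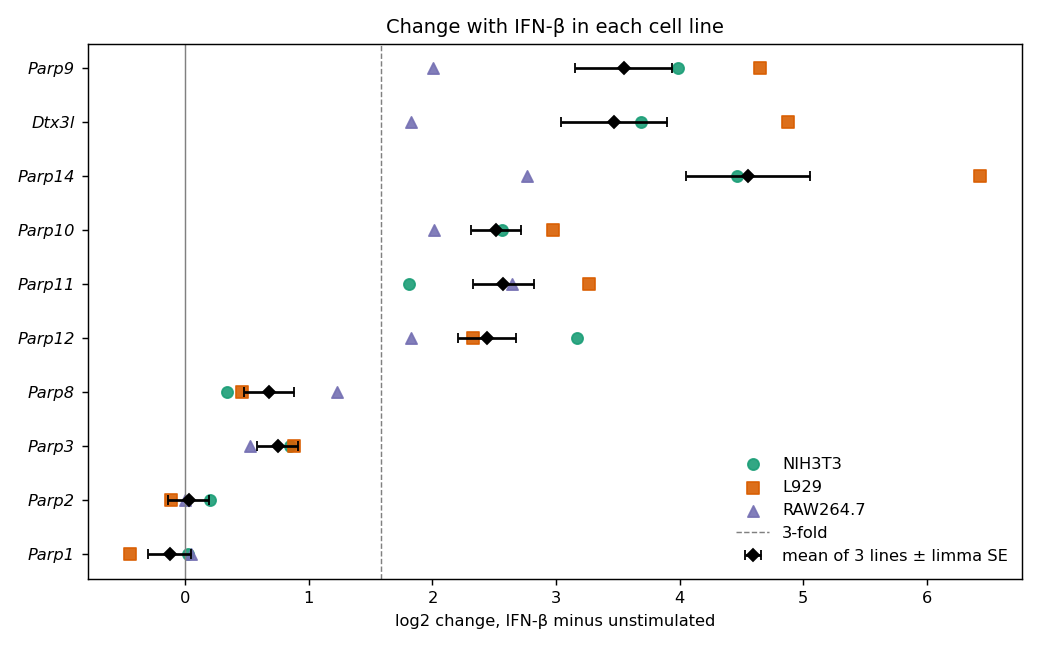
Log2 change with IFN-β (horizontal axis, IFN-β minus unstimulated) for each gene in NIH3T3, L929 and RAW264.7. Diamonds and bars give the mean of the 3 lines and its limma SE, and the dashed line marks 3-fold. Parp14 has the widest spread, from 2.77 in RAW264.7 to 6.43 in L929, and Parp1 and Parp2 lie around 0.

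Without the cell line in the model 0 of the 6 genes passed. Leaving it out changed the SE little for Parp10 (0.202 with it, 0.209 without) and Parp11 (0.247 and 0.289). Their limma adjusted p-values were then 0.0922 and 0.199. The SE rose more for Parp9, Dtx3l, Parp14 and Parp12. The fit without the line also differed in its variance estimate, with prior degrees of freedom of 1.87 against 7.87. Refitted and adjusted over all 35557 probe sets, named or not, also 0 passed (limma adjusted p from 0.0707 for Parp10 to 0.206 for Dtx3l). That refit changed the variance estimate as well as the number of tests, with prior degrees of freedom of 3.73 against 7.87. With variances estimated robustly and with a trend Parp10, Parp11 and Parp12 passed, while Parp9, Dtx3l and Parp14, which varied most between lines, had adjusted p-values of 0.565, 0.728 and 0.813.

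Parp1, Parp2 and Parp3, listed together here for their work at DNA breaks, did not pass. Parp1 (10352242), which senses breaks and is the main source of ADP-ribose chains, had log2 levels of 7.89 for NIH3T3, 7.77 for L929 and 8.78 for RAW264.7 with IFN-β, against 7.87, 8.22 and 8.74 unstimulated. The arrays of the conditions overlapped and the largest difference was a lower level in stimulated L929, by -0.45. Its mean log2 change was -0.13 ± 0.17 (SE, SD 0.28, limma adjusted p = 0.967). Parp2 (10414497), which shares the role of Parp1 in break repair, was at 7.23 for NIH3T3, 8.24 for L929 and 8.83 for RAW264.7 with IFN-β, and at 7.04, 8.36 and 8.83 unstimulated. The lines differed more than the conditions, and the mean change was 0.03 ± 0.16 (SE, limma adjusted p = 0.991). Both genes had their highest level in RAW264.7 and the order of the lines was the same in both conditions for Parp2.

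Parp3, which acts in the repair of double-strand breaks in human cells, had a small positive difference in each line that did not pass. Its log2 level (10596492) was 7.82 for NIH3T3, 7.28 for L929 and 6.13 for RAW264.7 with IFN-β, against 6.97, 6.40 and 5.61 unstimulated. The conditions overlapped across lines, since unstimulated NIH3T3 lay above stimulated RAW264.7. The differences of 0.85 for NIH3T3, 0.88 for L929 and 0.52 for RAW264.7 gave a mean of 0.75 ± 0.17 (SE, SD 0.20, unadjusted p = 0.00115, limma adjusted p = 0.117). In contrast to Parp1 and Parp2, Parp3 was lowest in RAW264.7 in both conditions.

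Parp8, a little studied member, had log2 levels (10412345) of 7.33 for NIH3T3, 4.06 for L929 and 6.04 for RAW264.7 with IFN-β, and of 6.99, 3.60 and 4.81 unstimulated. Its levels spanned 3.27 between the lines with IFN-β and 3.39 without, with NIH3T3 the highest and L929 the lowest in both conditions. The difference was 0.33 for NIH3T3, 0.46 for L929 and 1.23 for RAW264.7, where it was 2.34-fold. Both L929 levels lay below the median of their arrays, and the unstimulated RAW264.7 level lay near that of its array. These levels were not shown to be above background. The mean change of 0.67 ± 0.20 did not pass (SE, SD 0.48, unadjusted p = 0.00763, limma adjusted p = 0.449).

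Whether RAW264.7 responded differently from the fibroblasts was examined with an interaction term, which rests on 1 pair of arrays in RAW264.7. In this fit the changes of Parp14, Dtx3l and Parp9 were called smaller in RAW264.7, and the other 7 genes gave no call, but the 3 calls were lost under 2 of 5 alternatives. Parp14 changed by 2.77 in RAW264.7 against a fibroblast mean of 5.45, a log2 difference of -2.68 ± 0.49 (SE, limma adjusted p = 8.26e-05). For Dtx3l the changes were 1.83 in RAW264.7 and 4.29 in the fibroblasts (difference -2.46, limma adjusted p = 0.000529), and for Parp9 2.0 and 4.32 (difference -2.32, limma adjusted p = 0.00189). Over all genes 0.155% were called with a smaller change in RAW264.7. The differences of Parp12 (-0.92, limma adjusted p = 1.0), Parp10 (-0.76, limma adjusted p = 1.0), Parp8 (0.83, limma adjusted p = 1.0) and Parp11 (0.10, limma adjusted p = 1.0) did not pass. The fit has 1 residual degree of freedom, from the fibroblast lines, and limma's prior degrees of freedom were infinite, so all genes share an SE of 0.49 and a gene's own spread was not used. Parp14, for one, changed by 4.47 for NIH3T3 and 6.43 for L929. After quantile normalization (prior 11.7) and with all probe sets tested (prior 7.75) the 3 calls were lost (limma adjusted p from 0.099 to 0.798), with differences between -2.68 and -2.32. They held with centred arrays (prior 58.3, limma adjusted p from 0.0025 to 0.00363). Averaging the probe sets of a gene, another of the 5 alternatives, left the levels of these 3 genes unchanged.

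**Figure D3:**
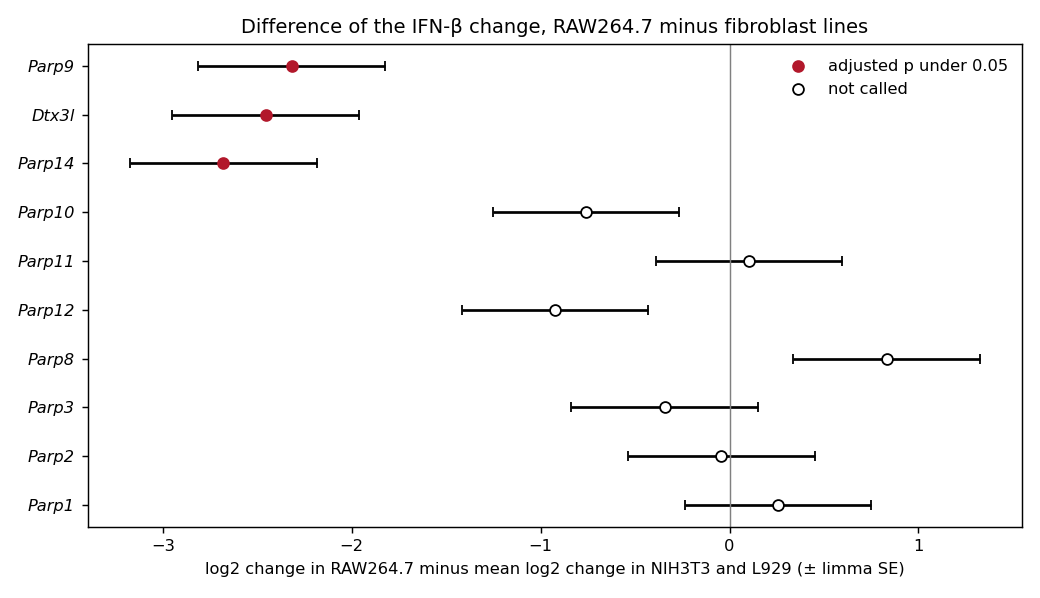
Difference of the log2 change with IFN-β, RAW264.7 minus the mean of NIH3T3 and L929 (horizontal axis), for each gene with its limma SE. Filled points passed an adjusted p of 0.05. Parp9, Dtx3l and Parp14 lie between -2.68 and -2.32, and the other 7 genes between -0.92 and 0.83.

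The smaller change of Parp9, Dtx3l and Parp14 in RAW264.7 went with a higher unstimulated level there. Unstimulated RAW264.7 exceeded the mean of the unstimulated fibroblasts by 2.68 for Parp9, 2.55 for Dtx3l and 3.38 for Parp14 on the log2 scale. With IFN-β the same differences were 0.36, 0.09 and 0.70. Across the lines the levels of Parp9 spanned 0.46 with IFN-β and 2.91 without, those of Dtx3l 0.87 and 2.71, and those of Parp14 1.45 and 3.64. Parp12 also started higher in RAW264.7, by 4.06, and stayed higher with IFN-β, by 3.14. These levels come from the arrays that also give the changes and were not tested apart from them. A narrower span with IFN-β was seen for 4 of the 6 genes that rose, for 38.6% of all genes and for 73 of the 146 genes called across lines. The change was smallest in RAW264.7 for 5 of the 6, as for 76 of the 146 genes, and largest in L929 for 5 of the 6, as for 109 of the 146.

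Parp14, Dtx3l and Parp9 are neighbours. In the order of the RefSeq table they follow each other on chromosome 16 among the genes measured. The 3 measured genes on either side, Sema5b, Slc49a4 and Hspbap1 before Parp14 and Kpna1, Wdr5b and Fam162a after Parp9, had mean log2 changes between -0.38 and 0.14, and 0 of them passed (lowest limma adjusted p = 0.888), with 1, Slc49a4, lower at an unadjusted p under 0.05. Hspbap1, next to Parp14, changed by -0.07 for NIH3T3, -0.14 for L929 and 0.45 for RAW264.7. Kpna1, an importin gene next to Parp9, changed by -0.03, -0.05 and -0.10.

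**Figure D4:**
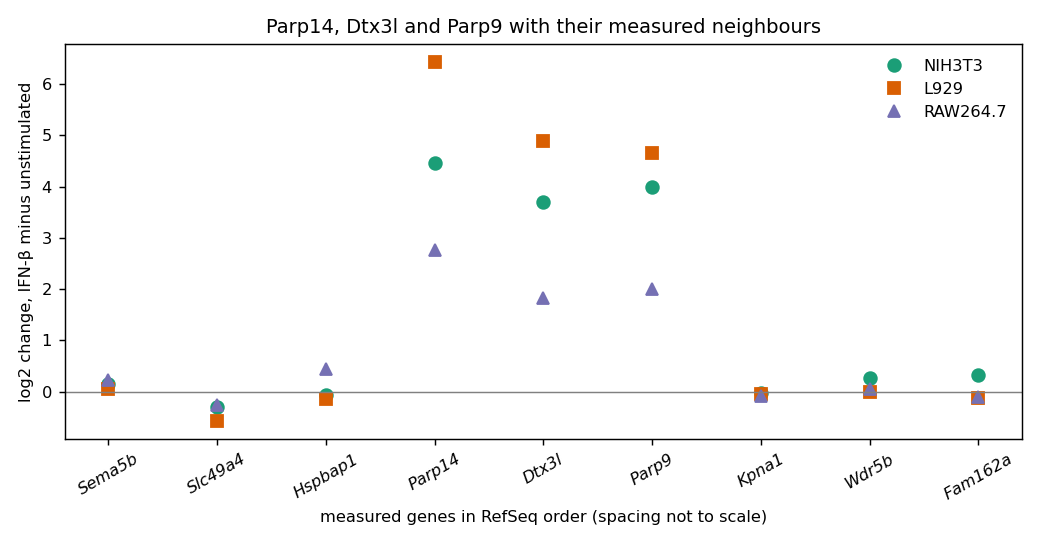
Log2 change with IFN-β (vertical axis) in each cell line for Parp14, Dtx3l, Parp9 and the 3 measured genes on either side, in RefSeq order with spacing not to scale. The 3 middle genes lie between 1.83 and 6.43 and their neighbours between -0.58 and 0.45.

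The measured neighbours of Parp10, Parp11 and Parp12 did not pass either. Parp10 lies on chromosome 15 between Plec, a cytoskeletal linker gene with a mean log2 change of -0.26, and Grina (0.49, limma adjusted p = 0.561). Parp11 lies on chromosome 6 between the cyclin gene Ccnd2 and Cracr2a, and Parp12 on the same chromosome between Tbxas1 and 4930599N23Rik. Ccnd2 had log2 changes of 0.22 for NIH3T3, -0.39 for L929 and 1.28 for RAW264.7. Of the 24 neighbours of the 6 genes in all, 0 passed in limma in either direction, while at an unadjusted p under 0.05 there were 1 higher, Grina, and 2 lower, Kdm7a and Slc49a4.

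To find genes with like patterns, each gene's 6 log2 levels were centred on their mean and compared by Euclidean distance. Of the 19937 other genes, Dtx3l was the nearest to Parp9, at a distance of 0.55 over the 6 arrays. Next to Parp9 came Xaf1, a cell death gene, at 0.76 and the ubiquitin ligase gene Rnf213 at 0.87. From Dtx3l, Xaf1 was nearest at 0.39, with Parp9 in place 2 and Herc6 at 1.11. Parp14 was nearest to Phf11d (1.04), Irf7 (1.33) and the RNA sensor gene Ddx58 (1.39), with Dtx3l in place 9 and Parp9 in place 10.

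Parp10 and Parp11 lay close to each other, at a distance of 0.75, in place 3 from Parp11 and place 4 from Parp10. The transcription factor gene Irf1 was nearest to Parp11 (0.23), followed by the cytokine gene Il15 (0.61), and Irf1 was also among the 3 nearest to Parp10 (0.71), after Slfn9 (0.53) and Daxx (0.60). Irf1 changed by 1.80 for NIH3T3, 3.11 for L929 and 2.56 for RAW264.7, set beside 1.81, 3.27 and 2.64 for Parp11. Parp12 had no near match: H2-T24 was nearest at 2.13, followed by Cmpk2 at 2.38 and Rasgef1b also at 2.38, and the closest other PARP gene was Parp9 at 3.24. These distances describe 6 arrays and carry no test.

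The enzymes around ADP-ribose were followed through further lists, in which Nampt alone passed. Of 6 measured members of the rest of the PARP family (Parp4 was not analysed here), 0 passed in limma and 1 was higher at an unadjusted p under 0.05. It was Zc3hav1, whose product ZAP lacks the enzyme activity and binds viral RNA, at a mean log2 change of 0.96 ± 0.19 (SE, limma adjusted p = 0.0574). Zc3hav1 was at 9.41 for NIH3T3, 9.11 for L929 and 9.29 for RAW264.7 with IFN-β, against 8.0, 8.32 and 8.60 unstimulated. Its stimulated and unstimulated arrays did not overlap, and it passed under 5 of 11 alternatives. Tiparp, another enzyme of the family, had a mean change of 0.31 and the tankyrase gene Tnks one of -0.13. Of the 4 other deltex ligases 0 passed, from Dtx4 at -0.59 (unadjusted p under 0.05, limma adjusted p = 0.405) to Dtx2 at 0.13.

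Among 7 measured genes that remove ADP-ribose 0 passed in limma, and Macrod2 was lower at an unadjusted p under 0.05. Macrod2 changed by -2.16 for NIH3T3, -0.83 for L929 and -0.18 for RAW264.7 (limma adjusted p = 0.395), and its 5 other probe sets differed, with mean changes from -0.79 in the same direction (probe set 10476582, lower in each line) to 0.38. Macrod1 had the highest mean change of the list, 0.29. The glycohydrolase gene Parg, which takes chains apart, had a mean change of 0.04. Of 9 genes of NAD synthesis and salvage 1 rose, Nampt, the rate-limiting enzyme for recycling nicotinamide into NAD+. Nampt was at 10.08 for NIH3T3, 10.55 for L929 and 11.32 for RAW264.7 with IFN-β, and at 9.43, 9.34 and 10.26 unstimulated. Each stimulated array was above the unstimulated array of its line, while unstimulated RAW264.7 lay above stimulated NIH3T3, so that the conditions overlapped across lines. The mean log2 change was 0.97 ± 0.17 (SE, limma adjusted p = 0.0361). The call was lost under 5 of 11 alternatives, among them centred arrays (limma adjusted p = 0.0645) and the fit without RAW264.7 (limma adjusted p = 0.0871). The other 8 ranged from Nmrk1 at -0.44, lower at an unadjusted p under 0.05, to Qprt at 0.31, which also had the widest range, 0.92 in NIH3T3 and -0.05 in RAW264.7.

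In the signalling chain from the receptor, 2 of 6 measured genes rose, Stat2 at a mean log2 change of 3.13 ± 0.21 (SE, limma adjusted p = 7.67e-05) and Irf9 at 2.22 ± 0.39 (SE, limma adjusted p = 0.0293). Irf9 lost its call under 6 of 11 alternatives, among them quantile normalization (limma adjusted p = 0.0874), and Stat2 under 1 of 11, the fit without the block. The receptor subunit genes Ifnar1 and Ifnar2 had mean changes of -0.19 and 0.07, and Jak1 and Tyk2, the kinases bound to them, 0.04 and 0.18. The medians of the mean changes were 0.13 for the other PARP genes, -0.15 for ADP-ribose removal, 0.04 for NAD synthesis and 0.12 for signalling, against 0.03 over all genes.

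**Figure D5:**
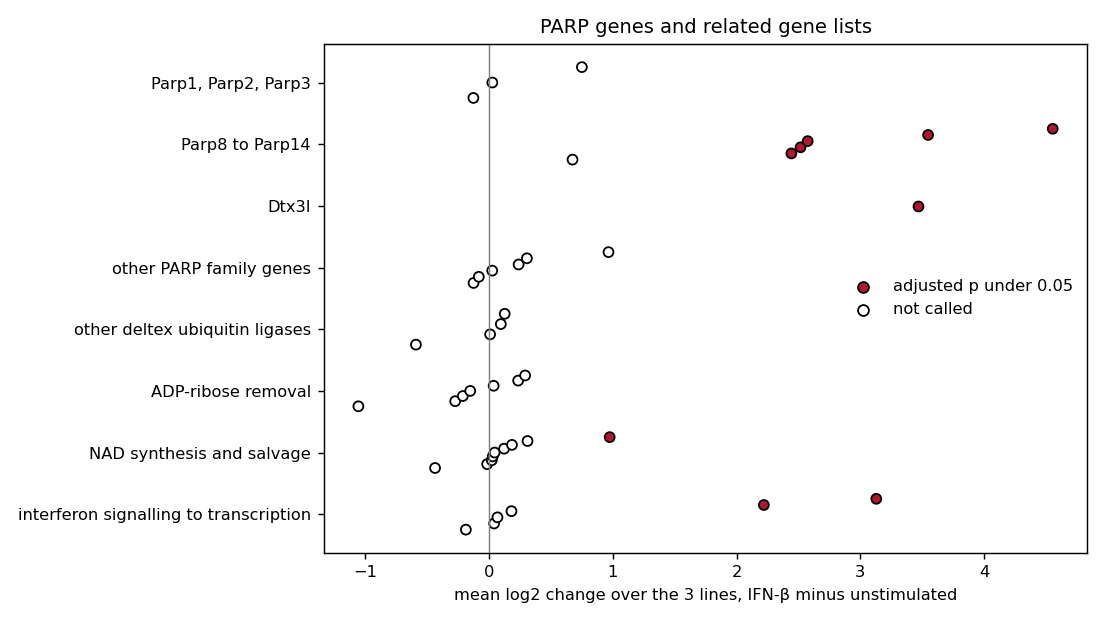
Mean log2 change over the 3 lines (horizontal axis, IFN-β minus unstimulated) of each measured gene, grouped by list. Filled points passed a limma adjusted p of 0.05. The 6 PARP-related genes that rose lie between 2.44 and 4.56, and outside the 10 genes Nampt, Irf9 and Stat2 passed.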

How the data were processed

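Levels were measured on Affymetrix whole-transcript mouse arrays, 1 per sample. The authors deposited log2 values made with RMA, per the submitters' processing notes, with version and settings not stated there. Their range showed the base to be 2. All 6 columns were used. The array annotation gave a single gene for 21789 of 35557 probe sets, and the brightest was kept per gene, giving 19938 genes. No filter on low levels was applied in the main fits, while an alternative kept only genes above the median mean level. The macrophage and fibroblast markers named as examples were the brightest of their lists.

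Within a line, 1 array was subtracted from the other and nothing was tested. For the effect across lines, limma 3.58.1 (R 4.3.3) fitted treatment with cell line as a block (2 residual degrees of freedom, prior 7.87), since both arrays of a pair come from the same line by their labels, with Benjamini-Hochberg adjustment over all genes and a threshold of 0.05. The p-values rest on the spread between these lines, with 1 array per line and condition, drawn toward the spread of all genes. No repeat cultures of a line enter them. Steps were tested on simulated data. Other steps used Python 3.11.15 with pandas 2.3.3, numpy 2.4.6 and matplotlib 3.10.9.

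The genes and lists were chosen with earlier results of these data known. Named are all 10 members, called genes and extremes of the lists, the 3 nearest patterns and the 3 neighbours on each side of each called member. Tiparp, Parg, Dcn, Ifnar2, Jak1 and Tyk2 were named after their values were seen, and the alternatives for Nampt, Stat2, Irf9 and Zc3hav1 were added then. Alternatives covered probe set choice, scaling, filtering, thresholds, variance models, the block and each line left out.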

Additional observations from a re-analysis of the deposited data

Results flagged for a closer look

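The change with IFN-β differed between RAW264.7 and the fibroblast lines by limma's interaction term for 3 genes, with an infinite prior and 1 pair of arrays in RAW264.7. The log2 difference, RAW264.7 minus the fibroblast mean, was -2.32 for Parp9, -2.46 for Dtx3l and -2.68 for Parp14. All 3 have a higher unstimulated level in RAW264.7, by 2.68, 2.55 and 3.38, and the part of that level in the difference was not tested.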

How the results depend on the processing

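Of the 12 alternatives for the count of genes called across lines, 9 gave 6 of the 10, each line left out included (6 each time). Among the 9, an adjusted p threshold of 0.1 could not lower the count. Averaging the probe sets of a gene left the levels of the 10 genes unchanged, since each has 1 probe set. The mean changes of Nampt, Irf9, Stat2 and Zc3hav1 were also unchanged by averaging. It was 3 with a robust trend, 0 without the replicate block and 0 with all probe sets tested. Over all genes the main count of 146 became 14 with all probe sets, 2 without the block, and 116 to 223 with a line left out (223 without RAW264.7, where the prior was infinite). Adjusted p-values over the alternatives ran from 9.76e-49 to 1.0 for Parp9, from 5.71e-48 to 1.0 for Dtx3l, from 1.6e-77 to 1.0 for Parp14 and from 8.98e-20 to 0.0922 for Parp10, the lowest without RAW264.7. The count of genes differing in RAW264.7, 3, was 0 after quantile normalization and 0 with all probe sets tested. In RAW264.7 the 6 genes at least 3-fold higher were 2 at 5-fold, Parp14 and Parp11. Among the values of the 10 genes, signs turned only for some near 0 that did not pass: Parp1 ranged from -0.21 to 0.033 with a line left out, Parp2 from -0.060 to 0.098, and Parp2 was at -0.070 with centred arrays. The RAW264.7 difference became 0.15 for Parp2 with centred arrays and -0.060 for Parp11 after quantile normalization. Added after seeing the data, adjusted p-values ran from 0.0065 to 1.0 for Nampt, from 3.87e-23 to 1.0 for Irf9, from 2.08e-30 to 0.199 for Stat2 and from 0.0115 to 1.0 for Zc3hav1. The cause of these shifts was not tested. The 1 array per group limits the precision of every value.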

Other observations

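Irf9, which binds the interferon-stimulated response element together with STAT2, also had a smaller change in RAW264.7 by the interaction term, a call lost under 2 of 5 alternatives. It was at 8.26 with IFN-β and 7.58 unstimulated in RAW264.7, against 7.49 and 4.74 in NIH3T3 and 8.40 and 5.17 in L929. Its log2 difference, RAW264.7 minus the fibroblast mean, was -2.32 (limma interaction adjusted p = 0.00189, shared SE from an infinite prior). The call was lost after quantile normalization (limma adjusted p = 0.099) and with all probe sets tested (limma adjusted p = 0.405), and over the 5 alternatives the adjusted p ran from 0.00167 to 0.405. The difference was -0.87 for Stat2 (limma interaction adjusted p = 1.0). The core of the response element occurred in 47 of the 155 promoter windows of the 146 genes called across lines, 30.3%, beside 1 of the 4 windows of Dtx3l, Parp11 and Parp12, the called PARP-related genes with a window. Windows of Parp9, Parp10 and Parp14 were not analysed here.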
